A study of Gallus gallus with 8 samples.

Results

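Translation initiation and elongation factors, the proteins that bring mRNA, initiator tRNA and ribosome together and then move the ribosome along the message, were compared between 2 parts of the chick head at Hamburger-Hamilton stage 8. The members were all genes whose platform symbol begins with EIF1 to EIF6, EEF1 or EEF2, each read from its probe set with the highest mean over all arrays, and the level of no gene in either tissue decided its membership. There were 54 such genes among 13009 genes with a single symbol, carried by 94 of 38439 probe sets, and 53 of them (84 probe sets) passed the filter on dim signal that left 10279 genes and 23063 probe sets for testing. The cranial neural fold, the raised edge of the neural plate from which neural crest arises, and the ventral neural plate of the head were dissected from chicken embryos for which the labels name no strain, genetic change or treatment. Each tissue gave 4 samples, with 1 Affymetrix GeneChip chicken genome array per sample. The series text gives 80 to 114 embryos for n = 4, which points to pooled embryos without saying how they were shared among samples. Nothing says that the samples were collected separately, so p-values measure only the spread between these 8 samples, which may be technical.

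Initiation starts when EIF2, bound to GTP and initiator tRNA, joins the small ribosomal subunit together with EIF1, EIF1A, EIF3 and EIF5. The cap-binding complex of EIF4E, the scaffold EIF4G and the helicase EIF4A then places this subunit on capped mRNA, and EIF5B joins the large subunit once a start codon is found. EEF1A delivers each aminoacyl-tRNA during elongation, its exchange factor EEF1B recharges it with GTP, and EEF2 moves the ribosome by a codon. Growing embryonic tissue uses this machinery heavily, and kinases that phosphorylate EIF2 or free EIF4E from its binding proteins set its rate.

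All levels below are log2(intensity + 16) after quantile normalization, and all changes are neural fold minus neural plate on that scale, so that changes of dim genes are understated. Because arrays were scaled to a common mean and then to a common distribution, a change shared by all mRNAs of a tissue cannot be seen, and in dissected tissue fewer cells of a type and less RNA per cell cannot be told apart. The markers followed the tissue labels, since 7 of 7 crest and border markers (PAX7, TFAP2A, TFAP2B, MSX1, SNAI2, FOXD3 and SOX9) were higher in neural fold, and 4 of 4 ventral neural markers (NKX6-1, FOXA2, SHH and PTCH1) were lower. The neural plate pieces also held more of 3 of 4 notochord and prechordal plate markers and of the endoderm marker SOX17 (1 of 4). The part of these cells in the ventral marker values and in the values below was not tested. Of the pan-neural markers, 2 of 4 (SOX2 and CDH2) were lower in neural fold, 1 of 3 non-neural ectoderm markers (CDH1) was higher, and 0 of 4 head mesoderm and 0 of 3 blood and endothelial markers passed. Without passing, LMO2 of blood (-2.39, limma adjusted p = 0.0504), TWIST1 of head mesoderm (-1.98) and APOA1 of endoderm (-1.42) were lower in neural fold without overlap. The pan-neural marker OTX2 (-0.17) was also lower without overlap or passing. In the other direction, and also without passing, GATA3 of non-neural ectoderm (1.27) was higher without overlap. TBX1 of head mesoderm (1.17) was higher with overlapping groups. Positive changes were seen in 0 of 3 blood and endothelial, 2 of 4 head mesoderm, 1 of 4 endoderm and 3 of 3 non-neural ectoderm markers. Array 1 of each tissue differed from the rest, with median deposited intensities of 195.8 and 182.3 against 105.4 to 121.7 on the other 6, and arrays of 1 tissue correlated at 0.878 to 0.970.

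None of the translation factors passed the test in either direction. Of 53 tested genes, 0 were higher and 0 lower at an adjusted p of 0.05 (limma with Benjamini-Hochberg adjustment over 23063 probe sets), while 1.75% of all tested genes and 1.28% of all tested probe sets passed. At an unadjusted p of 0.05, 1 of the 53 passed (EEF1A2), against 9.07% of all genes. The levels of the 2 tissues did not overlap in 2 of the 53 (EEF1A2 and EIF3J, both higher in neural fold), against 8.06% of all genes. The median change of the members was 0.01, with quartiles of -0.06 and 0.07, and 29 changes were positive and 24 negative. For all tested genes the median was -0.01 and the quartiles were -0.18 and 0.15. With the values as deposited the members' median was 0.06 and that of all genes again -0.01.

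A p that misses the threshold does not show that a gene was equal in both tissues, so the 95% interval of each difference was read as well. For 49 of the 53 genes the interval lay wholly within 2-fold in either direction, and for 37 it lay within 1.5-fold. Over all tested genes these shares were 68.6% and 30.8%. The shares were not matched for level, and the median SE was 0.16 for the members against 0.24 for all genes. These counts use the brightest probe set of each gene. Of the 84 tested probe sets of the members, 68 (81.0%) had an interval within 2-fold and 45 (53.6%) within 1.5-fold, against 61.4% and 23.2% of all tested probe sets. In this fit, which has no block for the array number, the 4 genes with intervals beyond 2-fold were EIF4G1, EEF2K, EIF2AK2 and EEF1AKMT1. With that block the SE of EIF4G1 was 0.16 rather than 0.59, and that of EEF1AKMT1 was 0.11 rather than 0.30. The SEs of EEF2K and EIF2AK2 were 0.42 and 0.33 with the block and 0.51 and 0.30 without it. The difference between the tissues was smaller than the larger of the SDs within a tissue in 47 of the 53 (88.7%), against 80.7% of all genes.

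**Figure D1:**
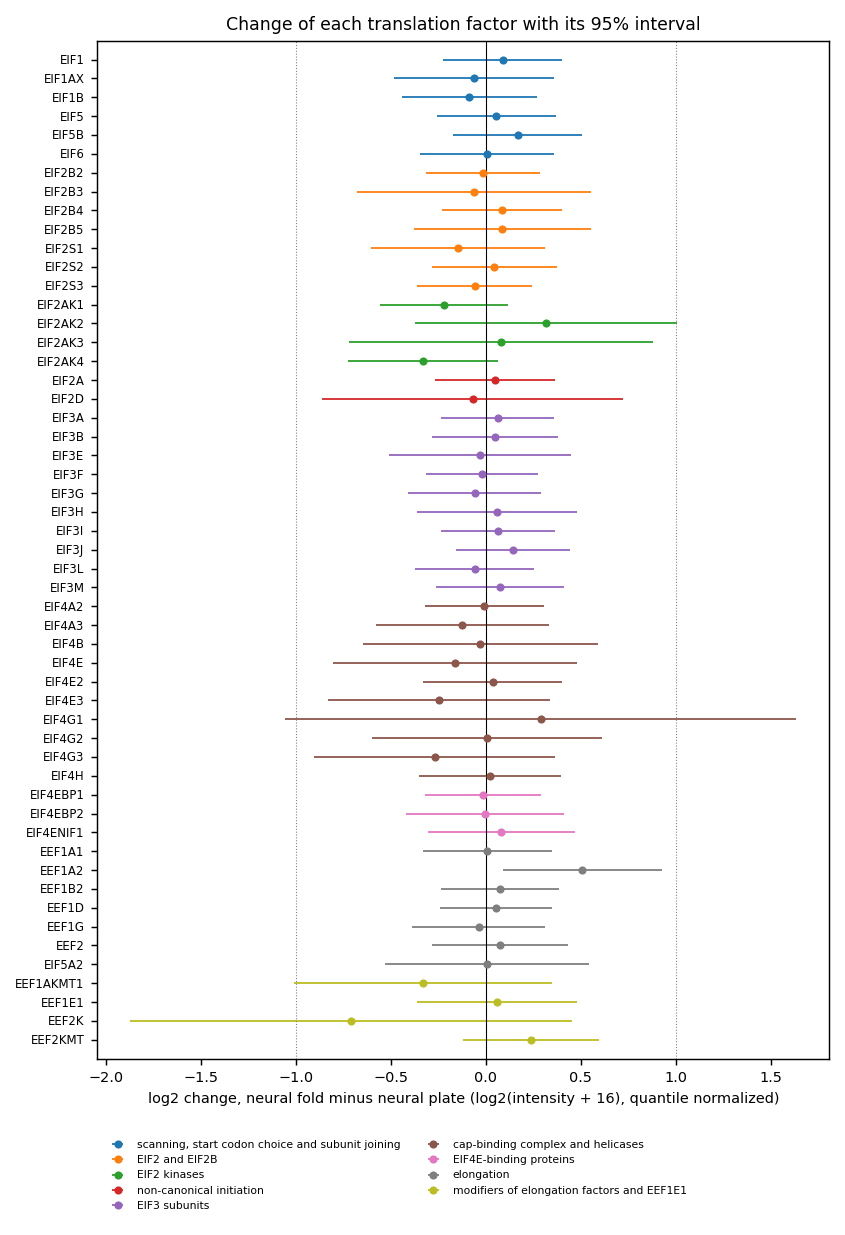
Log2 change of each of the 53 tested translation factors (neural fold minus neural plate, points) with its 95% limma interval (bars), grouped by role in colour, with dotted lines at a 2-fold difference. The interval of EEF1A2 alone lies to one side of 0, and those of 49 genes lie within the dotted lines.

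The one member with an unadjusted p under 0.05 was an elongation factor. EEF1A2 (Entrez gene 419244), a close relative of EEF1A1 known in mammals from muscle and mature neurons, had levels of 9.42, 9.42, 9.26 and 9.16 on the neural fold arrays. On the neural plate arrays it had 9.04, 8.82, 8.39 and 8.97, so that all 4 neural fold values lay above all 4 neural plate values. As deposited, these were intensities of 689.9, 651.2, 584.6 and 537.9 against 548.1, 412.4, 310.1 and 483.8, which overlap because neural plate array 1 lay above neural fold array 4. The change was 0.51 ± 0.18 (SE, 95% interval 0.09 to 0.93), or 1.42-fold, with a limma adjusted p of 0.42 that is not past the threshold. EEF1A2 kept a positive change under every alternative tried, from 0.37 to 0.60. With median centring its unadjusted p was not under 0.05 (change 0.50, limma adjusted p = 0.99).

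EEF1A1 (Entrez gene 373963), the main carrier of aminoacyl-tRNA in embryonic cells, was read at the top of the scale. It lay at 16.08, 15.96, 15.84 and 15.88 in neural fold and at 16.08, 15.99, 15.71 and 15.95 in neural plate. The groups overlapped fully, and the array numbered 1 was the highest in each. The change was 0.01 ± 0.15 (95% interval -0.33 to 0.35). This interval overlaps that of EEF1A2, and the difference between the genes was not tested. The array also carries 3 control probe sets along the EEF1A1 transcript, which the choice of members left out and which read its end, middle and start. In deposited intensity, the middle one gave 74832 ± 4281 on neural fold arrays and 68784 ± 4563 on neural plate arrays (SD, n = 4, exact two-sided permutation p = 0.11). The log2 difference of the 3 controls, as deposited, was 0.12 at each position, and that of the EEF1A1 probe set as deposited was 0.10. The exact permutation p-values of the controls were 0.60, 0.11 and 0.46, where the smallest p that 4 against 4 samples allow is 0.029. The ratio of 3' to 5' signal from these controls was 1.51 ± 0.06 on the neural fold arrays and 1.51 ± 0.12 on the neural plate arrays (SD, n = 4), and within each tissue it was highest on array 1 (1.59 and 1.68).

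The changes of the other elongation factors lay between -0.04 and 0.08 after quantile normalization, and those of EEF2 and EEF1B2 were larger with the values as deposited. EEF2, the translocase, had 15.58, 15.21, 15.26 and 15.22 in neural fold and 15.45, 15.18, 15.13 and 15.21 in neural plate. Both arrays numbered 1 were the highest of their tissue, and the change was 0.07 ± 0.16 (0.18 as deposited). EEF1B2, which carries the exchange activity for EEF1A, changed by 0.08 ± 0.14 (0.14 as deposited), with 15.09 ± 0.09 on neural fold arrays against 15.02 ± 0.10 on neural plate arrays (SD, n = 4). EEF1D and EEF1G, its partners in the exchange complex, changed by 0.05 ± 0.13 and -0.04 ± 0.15. EIF5A2, whose hypusine-bearing family helps ribosomes through difficult peptide bonds, changed by 0.01 ± 0.23. Of the 7 genes of this role, 6 had a positive change, with a median of 0.05, and for all but EEF1A2 the 95% interval lay within 1.5-fold.

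**Figure D2:**
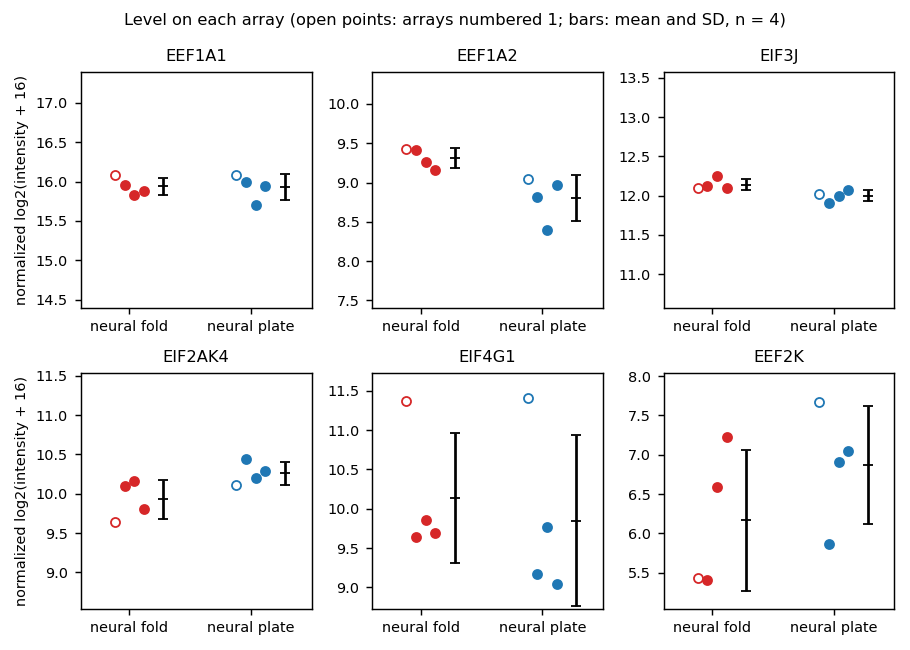
Level of 6 translation factors on each array (normalized log2(intensity + 16), each panel spanning 3 log2 units), with neural fold in red, neural plate in blue, open points for the arrays numbered 1, and bars for mean and SD (n = 4). EEF1A2 and EIF3J do not overlap between the tissues, while EIF4G1 is raised on array 1 of both.

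Factors that scan for the start codon and join the subunits were also near 0. EIF1, which guards start codon choice, had 13.81, 13.74, 13.58 and 13.75 in neural fold against 13.75, 13.62, 13.63 and 13.52 in neural plate, a change of 0.09 ± 0.14 with overlapping groups. EIF1AX and EIF1B, which act in the same complex, changed by -0.06 ± 0.18 and -0.09 ± 0.15. EIF5, the GTPase activator of EIF2, changed by 0.06 ± 0.14. Its dimmer probe sets changed by -0.05 ± 0.19 and -0.31 ± 0.56, and the mean of its probe sets by -0.10. EIF5B, the GTPase for subunit joining, had the largest change of this role at 0.17 ± 0.15 (95% interval -0.17 to 0.51), with 11.34, 11.00, 11.12 and 10.98 in neural fold and 10.86, 10.92, 11.09 and 10.88 in neural plate. Its dimmer probe sets differed in sign, with changes of -0.15 ± 0.16 and 0.61 ± 0.42, and the mean of its probe sets changed by 0.21. EIF6, which keeps the large subunit from joining too early, changed by 0.01 ± 0.15. The brightest probe sets of all 6 tested genes of this role had intervals within 1.5-fold. Some dimmer ones did not, such as those of EIF6 (0.67 ± 0.20, 95% interval 0.20 to 1.13) and EIF1AX (0.45 ± 0.28 and -0.57 ± 0.68).

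EIF2, its exchange factor EIF2B and the factors of non-canonical initiation gave no call. EIF2S1, the alpha subunit whose phosphorylation slows initiation, had 12.62, 13.09, 13.31 and 13.11 in neural fold and 12.91, 13.25, 13.46 and 13.10 in neural plate. Its groups overlapped, and the change was -0.15 ± 0.20. EIF2S2 and EIF2S3, the beta and gamma subunits, changed by 0.04 ± 0.14 and -0.06 ± 0.13. Of the EIF2B subunits, EIF2B2, EIF2B3 and EIF2B4 changed by -0.01 ± 0.13, -0.06 ± 0.27 and 0.09 ± 0.14. EIF2B5, the catalytic subunit, changed by 0.09 ± 0.20. EIF2A and EIF2D, which can bring initiator tRNA to the ribosome without EIF2, changed by 0.05 ± 0.14 and -0.07 ± 0.35. EIF2D lay at 9.41 and 9.39 on the arrays numbered 1 and at 10.15 to 10.66 on the other 6. With the array number as a block the SE of its change was 0.12.

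On the brightest probe sets, the changes of the kinases that phosphorylate EIF2S1 ranged more widely than those of the EIF2 and EIF2B subunits. The median SE of the kinases was also larger (0.24 against 0.14 for EIF2 and EIF2B), and the difference in range was not tested. Dimmer probe sets of the subunits EIF2S3 and EIF2B3 changed by -0.41 ± 0.36 and 0.35 ± 0.28, which is beyond the range of the kinases. EIF2AK4, the sensor of missing amino acids, had 9.64, 10.10, 10.17 and 9.81 in neural fold and 10.11, 10.44, 10.20 and 10.29 in neural plate. Only 1 neural plate array lay under the highest neural fold array, and the change was -0.33 ± 0.17 (95% interval -0.72 to 0.07, limma adjusted p = 0.76). Its dimmer probe sets changed by 0.20 ± 0.25 and -0.24 ± 0.69, and the mean of its probe sets by -0.12. EIF2AK1, the haem-regulated kinase, changed by -0.22 ± 0.15 (95% interval -0.55 to 0.12). EIF2AK2, activated by double-stranded RNA, and EIF2AK3, the kinase of the endoplasmic reticulum stress response, changed by 0.32 ± 0.30 and 0.08 ± 0.35. Each of the latter lay above the background limit on all 4 neural fold arrays but on 3 of 4 neural plate arrays, and the missing one was array 1 for both. Without both arrays numbered 1 the changes of EIF2AK2 and EIF2AK3 turned to -0.04 and -0.25, and EIF2AK3 was also negative without neural plate array 1 alone (-0.16), so neither has a settled direction. Of the 4 kinases, 0 passed the test.

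EIF3, the large scaffold that holds the small subunit to mRNA, was the most uniform of the larger roles on the brightest probe sets. Its 10 tested subunits had changes between -0.06 and 0.14, 6 of them positive, with a median of 0.06 and a median SE of 0.14. On the brightest probe sets the 95% interval lay within 1.5-fold for 10 of 10. That of a dimmer EIF3E probe set ran from -0.79 to 0.73. EIF3A, the largest subunit, had 12.88, 12.88, 12.95 and 12.76 in neural fold against 12.88, 12.76, 12.83 and 12.77 in neural plate, a change of 0.06 ± 0.13. The core subunits EIF3B, EIF3G and EIF3I changed by 0.05 ± 0.15, -0.06 ± 0.15 and 0.06 ± 0.13. EIF3E, EIF3F, EIF3H, EIF3L and EIF3M, of the outer ring, changed by -0.03 ± 0.21, -0.02 ± 0.13, 0.06 ± 0.18, -0.06 ± 0.14 and 0.07 ± 0.15.

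EIF3J (Entrez gene 415573), a loosely bound subunit, was the one of the 10 whose groups did not overlap, and its probe sets disagreed. The brightest gave 12.10, 12.12, 12.24 and 12.10 in neural fold and 12.02, 11.90, 11.99 and 12.07 in neural plate, a change of 0.14 ± 0.13 (limma adjusted p = 0.99). A dimmer one gave 7.16, 7.96, 7.66 and 7.94 in neural fold and 8.64, 8.05, 8.12 and 8.11 in neural plate, a change of -0.55 ± 0.23 (adjusted p = 0.57). After quantile normalization both probe sets separated the tissues, in opposite directions and without passing the test. As deposited, the intensities of the brightest one overlap, with 3900.6 on neural fold array 1 and 4387.8 on neural plate array 4. The remaining probe set of EIF3J lay below the filter. The mean of all probe sets of EIF3J, which includes the one below the filter, had a change of -0.28, so EIF3J has no settled direction here.

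On the brightest probe sets the cap-binding complex and its helicases ranged more widely, with a median change of -0.02 and a median SE of 0.26 in the fit without a block. EIF4E, the cap-binding protein, had 10.24, 11.05, 11.18 and 11.09 in neural fold and 10.48, 11.03, 11.36 and 11.34 in neural plate. The array numbered 1 was the lowest of each tissue, the groups overlapped, and the change was -0.16 ± 0.28. With the array number as a block the SE of this change was 0.11. EIF4E changed by 0.38 ± 0.22 and -0.25 ± 0.51 on its dimmer probe sets and by -0.01 on the mean of its probe sets. Its relatives EIF4E2 and EIF4E3 changed by 0.04 ± 0.16 and -0.25 ± 0.26. EIF4E1B, a relative known in vertebrates from oocytes, was the member below the filter. It lay above the background limit on 1 of 4 neural fold arrays and on 2 of 4 neural plate arrays and was not tested.

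The helicase EIF4A2 lay at 15.10, 15.28, 15.13 and 15.03 in neural fold and at 15.04, 15.20, 15.10 and 15.22 in neural plate, a change of -0.01 ± 0.14 that turned to 0.11 with the values as deposited. EIF4A3, the helicase of the exon junction complex, changed by -0.12 ± 0.20, and EIF4B and EIF4H, which stimulate EIF4A, by -0.03 ± 0.27 and 0.02 ± 0.16. EIF4G1, the main scaffold, had 11.36, 9.63, 9.86 and 9.69 in neural fold and 11.41, 9.17, 9.77 and 9.05 in neural plate. The arrays numbered 1 exceeded all 6 others, and the change of 0.29 ± 0.59 (95% interval -1.06 to 1.63) is the least precise of the members without a block. With the array number as a block this change had an SE of 0.16. Without both arrays numbered 1 it was 0.42, it was -0.12 when only the neural fold one was left out, and it was 0.82 when only the neural plate one was. EIF4G2, a relative that lacks the EIF4E site and serves cap-independent initiation, changed by 0.01 ± 0.26, and EIF4G3 by -0.27 ± 0.28. Symbols EIF4A1 and EIF5A did not occur among the probe sets used here, and these genes are not analysed here.

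The EIF4E-binding proteins, which hold EIF4E back from EIF4G, did not differ by more than their spread. EIF4EBP1, released from EIF4E when TOR kinase phosphorylates it, had 13.86, 13.71, 13.73 and 13.75 in neural fold and 13.88, 13.75, 13.80 and 13.67 in neural plate, a change of -0.01 ± 0.13. EIF4EBP2 changed by -0.00 ± 0.18 and EIF4ENIF1, which carries EIF4E to the nucleus and to processing bodies, by 0.08 ± 0.17. The intervals of all 3 lay within 1.5-fold on their brightest probe sets, while that of a dimmer EIF4ENIF1 probe set ran from -0.82 to 0.46.

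Enzymes that modify elongation factors included the largest change among the members, that of EEF2K. EEF2K, the kinase that inactivates EEF2, had 5.43, 5.41, 6.59 and 7.23 in neural fold and 7.67, 5.86, 6.91 and 7.05 in neural plate. It lay above the background limit on 1 of 4 neural fold and 3 of 4 neural plate arrays, and its change of -0.71 ± 0.51 (95% interval -1.87 to 0.46) comes from overlapping groups near background. It was -0.20 without both arrays numbered 1, -0.46 when array 2 of neural fold was left out and -1.04 when array 2 of neural plate was. EEF1AKMT1, a methyltransferase of EEF1A, changed by -0.33 ± 0.30 and lay lowest on array 1 of each tissue (7.94 and 8.06). Its dimmer probe set changed by 0.61 ± 0.59 and the mean of its probe sets by 0.14, so EEF1AKMT1 has no settled direction either. EEF2KMT, a methyltransferase of EEF2, changed by 0.24 ± 0.16, and its dimmer probe set by 0.57 ± 0.17. EEF1E1, a scaffold protein of the aminoacyl-tRNA synthetase complex, changed by 0.06 ± 0.18.

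In most members the arrays numbered 1 stood further from the others of their tissue than the tissues stood from each other. These arrays already stood out in deposited intensity. The contrast is also less balanced than that between the tissues, and the sizes were not tested against each other. The mean gap between the arrays numbered 1 and the other arrays of the same tissue exceeded the tissue difference in 42 of 53 genes, with a median size of 0.23 against 0.06, as it did in 74.7% of all tested genes (0.45 against 0.17). The gap had the same sign in both tissues in 46 of 53 members and in 78.8% of all genes. It was above 0.5 in both tissues for 3 members and below -0.5 in both for 5, together 15.1% of members against 30.9% of all genes. EIF4G1 stood 1.64 and 2.08 above the other arrays, EIF4G3 0.76 and 0.82, and EIF5A2 0.73 and 0.51. The 5 lower ones were EIF2D, EIF4E, EIF4G2, EEF1AKMT1 and EIF3E, with gaps between -0.50 and -1.10. The 3' to 5' ratios of the array's controls did not move together on these arrays. Those of EEF1A1 and GAPDH were the highest of their tissue on both (GAPDH 1.40 and 1.22), while that of actin was the lowest of its tissue on neural fold array 1 (1.36, with 1.86 the next) and lay within the range of the others on neural plate array 1 (1.74 against 1.57 to 1.99). Their part in the gaps was not tested.

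**Figure D3:**
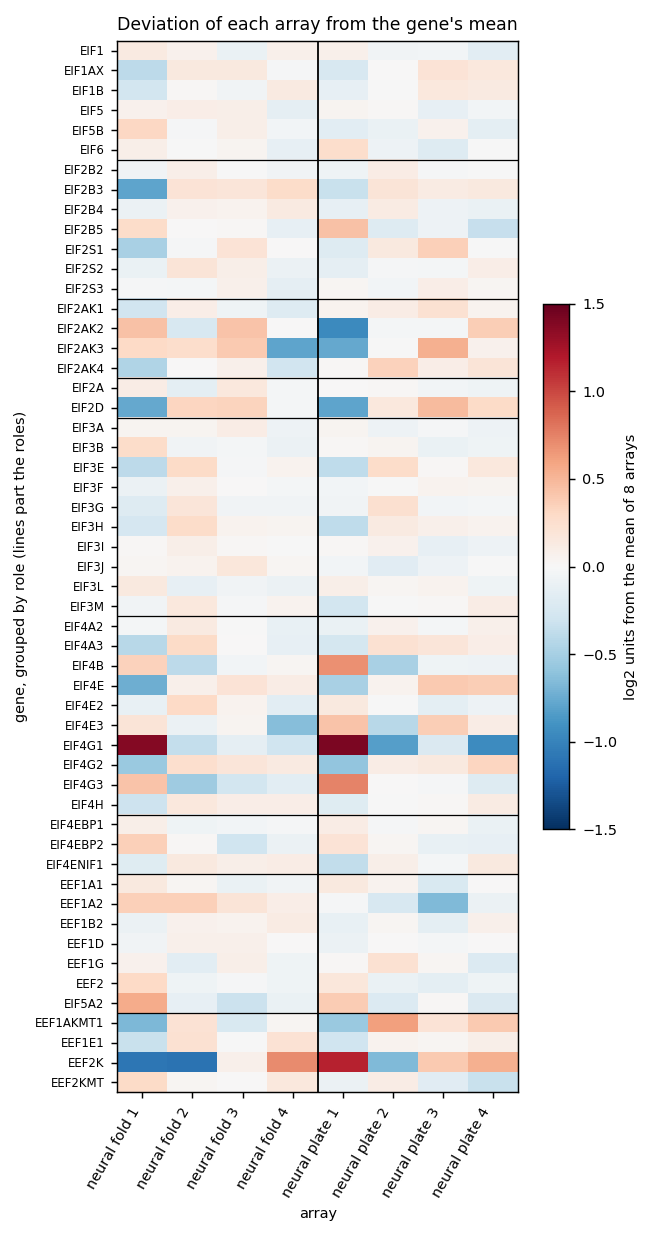
Deviation of each of the 8 arrays from the mean of the gene over all arrays (log2 units, red above and blue below), for the 53 tested translation factors in rows grouped by role. The strongest colours stand in the columns of the arrays numbered 1 in both tissues, as for EIF4G1 and EIF2D, and few rows change colour at the line between neural fold and neural plate.

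**Figure D4:**
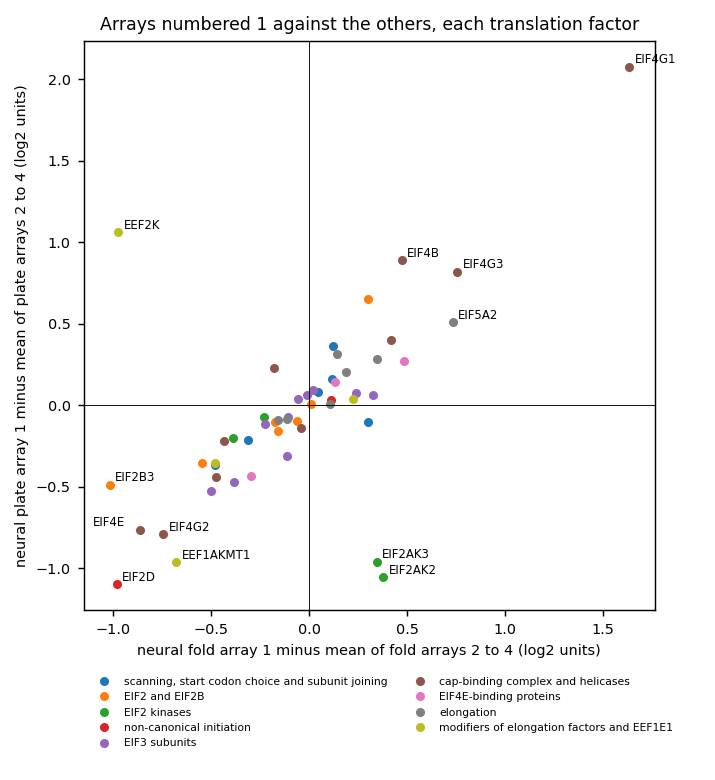
Gap between array 1 and the mean of arrays 2 to 4 in neural fold (horizontal, log2 units) and in neural plate (vertical, log2 units) for each tested translation factor, coloured by role. In 46 of 53 genes the gap has the same sign in both tissues, and EEF2K, EIF2AK2 and EIF2AK3 are among the exceptions.

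Fits that took the array number into account gave no call either. With the replicate number as a block, 0 of 53 members passed and 3 had an unadjusted p under 0.05 (EEF1A2, EEF1AKMT1 and EIF2AK4, adjusted p = 0.23, 0.27 and 0.33), while 2.30% of all genes passed. Without both arrays numbered 1, 0 of 53 passed and 1 had an unadjusted p under 0.05 (EEF1A2, change 0.59 ± 0.19, adjusted p = 0.23), while 3.26% of 10210 genes passed.

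Several genes were read by more than 1 probe set, and where each probe set lies on the mRNA was not examined. Of 84 tested probe sets of the members, 0 passed (1.28% of all), 4 had an unadjusted p under 0.05 (8.26% of all) and 4 separated the tissues (6.71% of all). Beside EEF1A2 and the dimmer probe set of EIF3J, those with an unadjusted p under 0.05 were a dimmer probe set of EEF2KMT (0.57 ± 0.17, limma adjusted p = 0.26) and one of EIF6 (0.67 ± 0.20, adjusted p = 0.29). The brightest probe set of EIF6 changed by 0.01, so its probe sets also differ. Of 23 members with several tested probe sets, 13 had changes of both signs.

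The size of these changes fell with brightness. Among probe sets with a mean level of 12 and over, the 35 of the members had a median absolute change of 0.05 and none above 0.15, with a median SE of 0.15, against a median absolute change of 0.08 for all 1430 probe sets there. The limit of 0.15 holds after quantile normalization. With the values as deposited, EEF2, EIF3J and EIF1, which lie at these levels, changed by 0.18, 0.17 and 0.16. Between 8 and 12, the median absolute change of 34 member probe sets was 0.17, against 0.15 over all. Below 8, that of 15 was 0.35 against 0.29, with a median SE of 0.42. Of the 53 genes, 50 lay above the background limit on all 8 arrays (94.3%, against 80.1% of all tested genes).

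**Figure D5:**
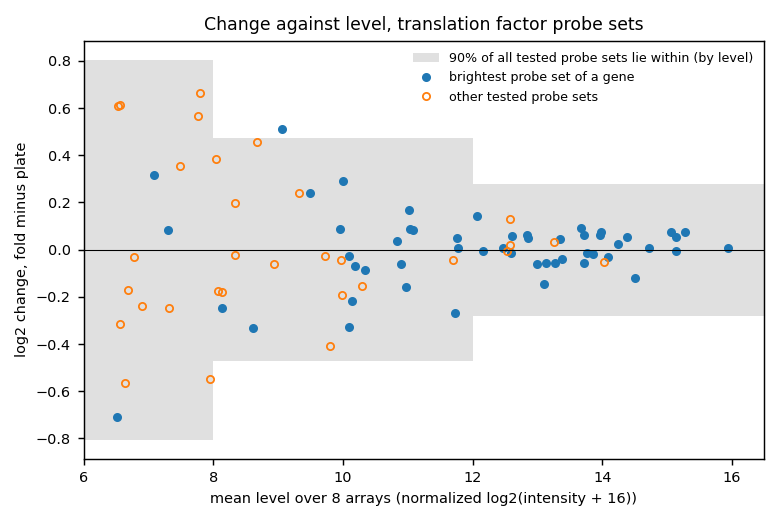
Log2 change (neural fold minus neural plate) against mean level over 8 arrays for the 84 tested translation factor probe sets, with filled points for the brightest probe set of a gene and open points for others. The grey band holds 90% of all tested probe sets at levels below 8, from 8 to 12, and 12 and over, and the points narrow around 0 as level rises.

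Genes that act on or beside these factors were counted in 7 further lists, and 0 of 72 tested genes passed in either direction (median change -0.00, 2 with an unadjusted p under 0.05, 4 without overlap, and 63 with a 95% interval within 2-fold). Over all tested genes, 1.75% passed, 9.07% had an unadjusted p under 0.05, 8.06% did not overlap, and 68.6% had an interval within 2-fold. Among 17 genes of TOR and ERK signalling to translation, PDCD4, an inhibitor of EIF4A, had the smallest p. Its level was 13.21 ± 0.19 on neural fold arrays against 13.69 ± 0.13 on neural plate arrays (SD, n = 4). Its groups did not overlap, and the change was -0.48 ± 0.16 (limma adjusted p = 0.34). Among 6 genes of the integrated stress response, the programme downstream of EIF2 phosphorylation, ATF3 changed by 1.31 ± 0.34 (adjusted p = 0.16) without overlap, and lay above the background limit on 4 of 4 neural fold and 2 of 4 neural plate arrays. The other 5 genes of that list lay between -0.25 and 0.25.

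In the remaining lists no gene had an unadjusted p under 0.05. PAIP2B, an inhibitor of poly(A)-binding protein, changed by -0.29 ± 0.14 (limma adjusted p = 0.66), the smallest p of 9 poly(A)-binding proteins and partners. The list of cytosolic aminoacyl-tRNA synthetases, which charge tRNA for EEF1A, also held AIMP1 and AIMP2, scaffold proteins of the synthetase complex. Of its 20 genes, 11 changes were positive and 9 negative, with a median of 0.01. HARS1 had the smallest p (0.23 ± 0.13). For 20 of 20 the 95% interval lay within 2-fold. Of 7 termination and recycling factors, the changes ran from -0.09 to 0.16 with a median of -0.00, and HBS1L, of ribosome rescue, had the smallest p (0.16 ± 0.14). Of 7 enzymes that modify EIF5A and EEF2, DPH2, of diphthamide synthesis, had the smallest p (0.15 ± 0.18). Of 6 mitochondrial translation factors, GFM1, an elongation factor, did (0.17 ± 0.17), and only 3 of the 6 had an interval within 2-fold.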

How the data were processed

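Total RNA of 4 neural fold and 4 neural plate samples was labelled with biotin and hybridised to Affymetrix chicken genome arrays, per the labels' protocols. The deposited values are linear probe set intensities made with GCOS, per the submitters' processing notes, and their trimmed means of about 500.1 on each array show that the authors scaled them. The genome build, background treatment and detection calls are not given in the sources used here. Of 38535 probe sets, 96 controls were left out. Symbols came from GEO's platform annotation: 27168 probe sets had 1 symbol, 177 several and 11094 none. Of their Entrez IDs, 26853 were found in RefSeq's table and 0 symbols changed. All array columns were used (0 columns were left unused).

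Intensities were converted to log2(intensity + 16) and quantile normalized. Probe sets with a mean under the 40th percentile were dropped. Neural fold and neural plate were compared with limma 3.58.1 (R 4.3.3, lmFit and eBayes) without a block, Benjamini-Hochberg adjustment over 23063 probe sets and a threshold of 0.05. The pipeline was tested on simulated data. The background limit of an array was the 95th percentile over 59 controls that match bacterial or artificial sequences. The number of arrays limits the precision.

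The members, gene lists and tests were chosen with earlier results of these data known. Named genes were members past the threshold, the 8 largest changes in each direction, 1 or more core members of each step, and the smallest p of each pathway list. Other members are given by their change. Same-numbered samples of the 2 tissues deviated together (correlations of 0.623, 0.193, 0.290 and 0.214), so by the rule used the numbers pair the samples. The first pair carries most of this, and neural fold 2 correlated best with neural plate 4 (0.284). The main fit, its SEs and its intervals leave the pairing out, and interval counts for the paired fit are not given. Alternatives were other scalings, pseudocounts, filters, an intensity trend, the replicate block, averaging over the probe sets of each gene, and leaving out arrays.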

Additional observations from a re-analysis of the deposited data

Results flagged for a closer look

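Of 48 groups of 4 arrays checked among the named members, 6 held an array far from the other 3, where chance flags about 1 in 20 groups, or 2.4 of them. All 6 were in neural fold. EIF4G1 lay at 11.36 on neural fold array 1 against 9.63 to 9.86 on the others, EIF4E at 10.24 against 11.05 to 11.18, and EEF2 at 15.58 against 15.21 to 15.26. EIF2AK3 lay at 6.51 on neural fold array 4 against 7.57 to 7.69, and EIF5 at 14.24 against 14.44 to 14.48. EIF3J lay at 12.24 on neural fold array 3 against 12.10 to 12.12.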

How the results depend on the processing

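Under each of 19 alternatives, 0 members and 0 pathway genes passed, the median change of the members stayed between -0.01 and 0.06, and 0 to 4 members had an unadjusted p under 0.05. The lowest limma adjusted p of a member was 0.14, for EEF2KMT with the mean of each gene's probe sets (change 0.40). With the replicate block (paired fit) EEF1A2 had an adjusted p of 0.23, and the block changed no call among the members. Of 426 values of the 24 named genes, 401 kept their direction and side of the threshold, and 25, in 13 genes, changed sign without a call. All these values lay between -1.04 and 0.82. The count over all probe sets, 295, was 151 with median centring and 582 without both arrays numbered 1, and 145 to 305 when 1 array was left out, and the cause was not tested. The median SE of member probe sets was 0.42 below a level of 8 and 0.15 at 12 and over.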

Other observations

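A further probe set matches both EIF3D, an EIF3 subunit that can bind the mRNA cap, and FOXRED2, and was left out of the members because its signal cannot be given to 1 gene. Its level was 13.64 ± 0.16 on neural fold arrays against 13.76 ± 0.16 on neural plate arrays (SD, n = 4), a change of -0.12 ± 0.16 (95% interval -0.47 to 0.24, limma adjusted p = 1.00).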
